A study of Homo sapiens with 4 samples.

Results

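Subunits and feedback genes of the NF-κB pathway, 10 genes in all, were followed in the pancreatic ductal adenocarcinoma line PANC-1 and in its knockdown clone PZT-2. They were the subunits NFKB1, NFKB2, RELA and RELB, the feedback inhibitors NFKBIA, NFKBIE and TNFAIP3, the inhibitor of apoptosis BIRC3, and the kinases IKBKB and IKBKE. Genes were taken by symbol, and the estimated counts of their transcripts were summed per gene and library. All 10 were found among 15222 genes with counts, and all 10 passed the filter on low counts that left 15102 genes to test. Fitted log2 fold changes of their mRNA between the cell lines lay between −0.25 and 0.42. NFKBIA was 1.21-fold higher and TNFAIP3 1.34-fold higher in PZT-2. Both calls were lost in most of the fits with 1 library left out and with replicate number as a block. The other 8 did not pass the test.

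NF-κB is a family of dimeric transcription factors that reside in the cytoplasm of resting cells, bound by inhibitors of the IκB family. Receptors of the tumor necrosis factor, interleukin and Toll-like families switch on IκB kinases, which mark IκB proteins for degradation and release the dimers into the nucleus. Several of the genes switched on there encode the pathway's own brakes, so that IκBα, IκBε and the ubiquitin-editing enzyme TNFAIP3 are both regulators and outputs. In pancreatic cancer cells the pathway is known for survival signalling and for secretion of chemokines. Its activity is set largely at the protein level, which mRNA counts do not measure.

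RNA had been sequenced to learn how loss of the histone variant H2A.Z changes gene expression. PANC-1 cells were untransduced wild type cells. PZT-2 is a single clone of PANC-1 that stably carries lentiviral short hairpin RNAs, driven by a U6 promoter, against H2AFZ and H2AFV, the genes of the H2A.Z isoforms. Both were grown in serum-supplemented DMEM and taken over the same range of passages, with 2 libraries each. Cells with a scrambled hairpin, which the study also describes, are not analysed here, so hairpin expression and clonal origin cannot be told apart from loss of H2A.Z. The study calls the libraries of a line biological replicates, but the labels do not say whether they came from separate cultures, so p-values measure only the spread between these libraries.

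The libraries held between 12861486 and 15717578 counts. H2AFZ had a normalized count of 6389 and 6034 in PANC-1 against 2212 and 2259 in PZT-2, a fold of 0.36 (adjusted p = 6.31e-05, edgeR). H2AFV fell to a fold of 0.781 (adjusted p = 0.00574, 0.0602 without PZT-2 replicate 1 and 0.0688 for its most abundant transcript alone). Levels summed over 5 ductal markers were 7245 and 7399 TPM, an abundance corrected for transcript length, in PANC-1 and 4058 and 3969 in PZT-2. KRT7 had only 8.44 to 11.0 TPM and EPCAM 6.75 to 8.44 TPM over the libraries. KRT8, KRT18 and KRT19, which were lower in PZT-2, made up nearly all of the sum. The mesenchymal marker VIM was also high, at 6397 and 6497 TPM in PANC-1 and 4875 and 4742 TPM in PZT-2. Of the other cell types, 3 of 5 immune markers had counts and summed to 118 to 131 TPM, nearly all of it CD68 (117 to 130 TPM), a lysosomal membrane protein, while CD14 reached 2.75 TPM. The fibroblast marker COL1A1 had 10.5 and 11.7 TPM in PANC-1 and 3.83 and 3.03 TPM in PZT-2, and PECAM1 did not exceed 0.236 TPM. No counts of the acinar or endocrine markers were analysed here. In bulk RNA, fewer cells of a type and less RNA per cell cannot be told apart.

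NF-κB dimers bind a short DNA motif, the κB consensus, and matches to it were searched on both strands of RefSeq promoters (GRCh38.p14), from 250 bases before to 50 bases after a gene's start. Promoters matched 7 of the 10 genes. Of their 11 promoters, 6 held at least 1 match, those of NFKB1, NFKB2, NFKBIA, TNFAIP3 and BIRC3, against 5.91% of all 35116 promoters in the table, and those of RELA and IKBKE held none. Windows around the matches are printed because the genes that hold them can then be set beside the differences measured. For NFKB2 only 1 match per promoter is shown. Capitals mark the match, and a run of 11 capitals holds overlapping matches of both strands. The strand named is that of the gene, along which the window is written. Matches of NFKBIA, TNFAIP3 and BIRC3 read on the opposite strand.
NFKB1, chr4:102501300-102501329, plus strand, 49 bases before the start: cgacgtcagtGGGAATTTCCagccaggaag
NFKB2, chr10:102394462-102394490, plus strand, 107 bases before the start: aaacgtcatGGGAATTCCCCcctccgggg
NFKB2 from another start, chr10:102395674-102395703, plus strand, 21 bases before the start: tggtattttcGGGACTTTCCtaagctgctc
NFKBIA, chr14:35404811-35404840, minus strand, 81 bases before the start: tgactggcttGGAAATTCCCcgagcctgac
TNFAIP3, chr6:137867182-137867211, plus strand, 67 bases before the start: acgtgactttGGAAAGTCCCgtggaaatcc
TNFAIP3, chr6:137867194-137867223, plus strand, 55 bases before the start: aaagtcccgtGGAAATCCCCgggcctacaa
BIRC3, chr11:102317275-102317304, plus strand, 199 bases before the start: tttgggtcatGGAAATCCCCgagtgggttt
BIRC3, chr11:102317339-102317368, plus strand, 135 bases before the start: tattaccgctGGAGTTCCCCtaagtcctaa
Read on the strand of the match, NFKB1 and NFKBIA carried the same 10 letters. The match of TNFAIP3 farther from its start had the same letters as the shown match of NFKB2 at 21 bases, and the nearer had those of the BIRC3 match at 199 bases. A match is a description of letters and not a measured binding site.

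Levels were compared between genes in TPM. RELA, the main transactivating subunit, stood highest in both lines, at 130 ± 6.94 TPM (SD, n = 2) in PANC-1 and 144 ± 2.90 TPM in PZT-2. In PANC-1 it was followed by NFKB2 at 108 ± 6.54 TPM and NFKBIA at 105 ± 3.67 TPM, whose libraries overlapped. In PZT-2 their order changed, with NFKBIA at 132 ± 7.47 TPM above NFKB2 at 97.6 ± 4.64 TPM, and the libraries of these genes did not overlap. RELB and NFKBIE came next, at 44.8 ± 4.79 and 43.2 ± 1.76 TPM in PANC-1, where they overlapped, and at 50.4 ± 2.81 and 37.9 ± 3.0 TPM in PZT-2, where they did not. NFKB1 lay near 28 TPM in both lines, and BIRC3 at 20.4 ± 0.83 TPM in PANC-1 and 20.2 ± 1.11 TPM in PZT-2. The lowest levels were those of IKBKB, TNFAIP3 and IKBKE, at 8.03 ± 0.92, 5.14 ± 0.195 and 3.44 ± 0.0723 TPM in PANC-1 and 8.14 ± 0.154, 7.13 ± 0.323 and 3.82 ± 0.602 TPM in PZT-2. Libraries of all other neighbours in this order did not overlap. RELA was above 91.4% of tested genes in PANC-1, and IKBKE was above 29.9% of them.

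Between the lines, 2 of the 10 genes passed edgeR's quasi-likelihood test at a Benjamini-Hochberg adjusted p below 0.05, and both were higher in PZT-2. Of all genes tested, 28.4% passed, 14.7% as higher and 13.7% as lower, so a share of 20% is no more than that of genes at large. DESeq2 and limma on log2(TPM + 1) and log2(TPM + 0.1) each called 1 of the 10, NFKBIA as higher, beside 21.3%, 25.3% and 24.6% of all genes. The most abundant transcript alone called NFKB2 as lower and neither NFKBIA nor TNFAIP3, beside 14.1% of all genes, and at least 10 counts in all 4 libraries called 3, beside 35.9%. By limma on log2(TPM + 1), 62.1% of calls over all genes were higher, against 51.8% in edgeR. Of the 10 genes, 5 had a fitted value above 0 and 5 below, with NFKB1 and IKBKB changing sign on the TPM scale. The median log2 fold change was 0.03 and the median of its absolute size 0.11, beside 0.28 over all genes and 0.23 over the 9069 genes whose mean normalized count lay within the range of these 10. Libraries of the lines did not overlap for 4 of the 10 genes, 2 higher and 2 lower in PZT-2, beside 66.3% of all genes tested. The smallest p of an exact permutation test of 2 against 2 libraries is 0.333, so single genes were judged only from the fit over all genes.

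**Figure D1:**
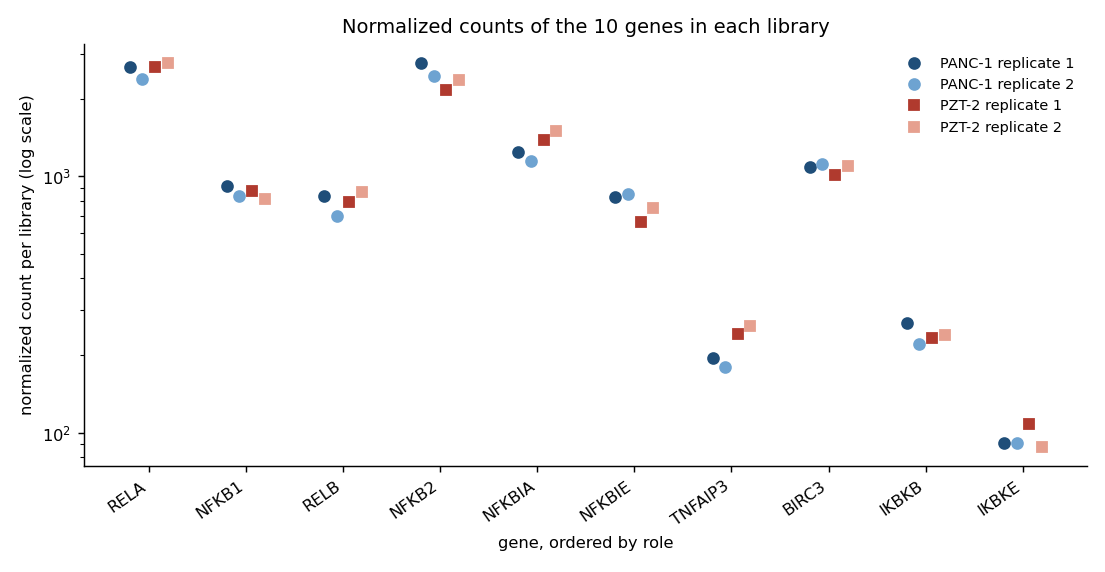
Normalized count in each of the 4 libraries (log axis) for the 10 genes, ordered by role from subunits to kinases. Circles are PANC-1 libraries and squares PZT-2 libraries. Both squares lie above both circles for NFKBIA and TNFAIP3 and below them for NFKB2 and NFKBIE.

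Of the subunits, none passed the test. RELA had normalized counts of 2677 and 2408 in PANC-1 and 2667 and 2760 in PZT-2. The lowest value was that of PANC-1 replicate 2 and the lines overlapped, with a log2 fold change of 0.09 ± 0.07 (SE, adjusted p = 0.36, edgeR). NFKB1, whose precursor is cut to the DNA-binding partner of RELA, had 916 and 842 in PANC-1 and 880 and 820 in PZT-2. Its values alternated between the lines, with a log2 fold change of −0.05 and a 95% interval of −0.23 to 0.14 (adjusted p = 0.697, edgeR). For RELB, a subunit of the alternative pathway, counts were 838 and 699 in PANC-1 and 796 and 866 in PZT-2. The PANC-1 libraries spanned the lower PZT-2 value, and the log2 fold change was 0.12 with an interval of −0.13 to 0.37 (adjusted p = 0.45, edgeR).

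NFKB2, whose precursor gives the partner of RELB, showed the clearest order among the subunits, with 2767 and 2457 in PANC-1 and 2183 and 2370 in PZT-2. The libraries of PZT-2 were the lowest and those of PANC-1 the highest. Its log2 fold change of −0.20 ± 0.08 had an unadjusted p of 0.0436 and an adjusted p of 0.112 in edgeR. Without PANC-1 replicate 2 it passed, at −0.29 and an adjusted p of 0.00647, as did its most abundant transcript alone, at −0.63 and 0.0381, and the alternatives gave adjusted p-values from 0.00647 to 0.434.

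NFKBIA encodes IκBα, the inhibitor that captures RELA dimers and is itself induced by them. Its normalized counts were 1243 and 1146 in PANC-1 and 1387 and 1510 in PZT-2. Both PZT-2 libraries were above both PANC-1 libraries, by a log2 fold change of 0.28 ± 0.07 with an interval of 0.10 to 0.46 (adjusted p = 0.0342, edgeR). TNFAIP3, which trims ubiquitin chains from the adaptors upstream of the kinases, had 196 and 181 in PANC-1 and 244 and 260 in PZT-2. Again the lines did not overlap, and its log2 fold change of 0.42 ± 0.11 was the largest of the 10 (interval 0.15 to 0.69, adjusted p = 0.0338, edgeR). With 1 library left out, the line with a single library is taken to vary like the other, and neither call then held in every case. Without PANC-1 replicate 2, PZT-2 replicate 1 and PZT-2 replicate 2 in turn, the adjusted p was 0.0527, 0.071 and 0.219 for NFKBIA and 0.0935, 0.101 and 0.184 for TNFAIP3. DESeq2 kept NFKBIA but not TNFAIP3, which had an adjusted p of 0.183. The alternatives gave adjusted p-values from 0.007 to 0.219 for NFKBIA and from 0.0294 to 0.828 for TNFAIP3. The 20 tested genes nearest to TNFAIP3 on chromosome 6 had a median log2 fold change of 0.32, against −0.02 over the chromosome, while the neighbours of NFKBIA had −0.03. Their part in the result was not tested.

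NFKBIE encodes IκBε, an inhibitor of the same family, and had the opposite sign. Its counts were 828 and 851 in PANC-1 and 666 and 750 in PZT-2. Both PZT-2 libraries were lower, by a fitted −0.25 ± 0.08 on the log2 scale, short of the threshold over all genes (unadjusted p = 0.0212, adjusted p = 0.0664, edgeR). It passed with at least 10 counts required in all 4 libraries, at an adjusted p of 0.0467, and the alternatives ran from 0.0467 to 0.305. BIRC3, a ubiquitin ligase that is recruited to tumor necrosis factor receptors and restrains the alternative pathway, had 1090 and 1122 in PANC-1 and 1013 and 1101 in PZT-2. Its lines overlapped, and the log2 fold change was −0.07 with an interval of −0.23 to 0.10 (adjusted p = 0.526, edgeR).

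Levels of pairs of these genes were set against each other as ratios of TPM within a library, as a description. NFKBIA stood at 2.56 and 2.30 times NFKBIE in PANC-1 and at 3.55 and 3.44 times in PZT-2. NFKB2 stood at 2.34 and 2.50 times RELB in PANC-1 and at 1.95 and 1.93 times in PZT-2. The ratio of NFKBIA to its target RELA was 0.795 and 0.816 in PANC-1 and 0.892 and 0.939 in PZT-2. The kinases IKBKB and IKBKE, by contrast, stood at ratios of 2.56 and 2.11 in PANC-1 and 1.89 and 2.43 in PZT-2, which overlapped. Of 7 ratios computed this was the one that overlapped, and none was tested. Several of these ratios share a gene, and no such share was computed for pairs of other genes. For single genes, the libraries of the lines did not overlap for 66.3% of all genes tested.

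The kinases did not pass either. IKBKB, the catalytic kinase that marks IκBα in the classical pathway, had 267 and 221 in PANC-1 and 234 and 241 in PZT-2. Both PZT-2 libraries fell between the PANC-1 libraries, and the log2 fold change was −0.03 with an interval of −0.34 to 0.27 (adjusted p = 0.873, edgeR). IKBKE, a related kinase of the interferon branch, had 91.1 and 91.3 in PANC-1 and 108 and 88 in PZT-2. It had the lowest counts of the 10 and the widest interval, −0.31 to 0.51 around a log2 fold change of 0.10 (adjusted p = 0.71, edgeR). Over the 8 genes that did not pass, the intervals reached from −0.44 to 0.51, from NFKBIE at the low end to IKBKE at the high end.

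**Figure D2:**
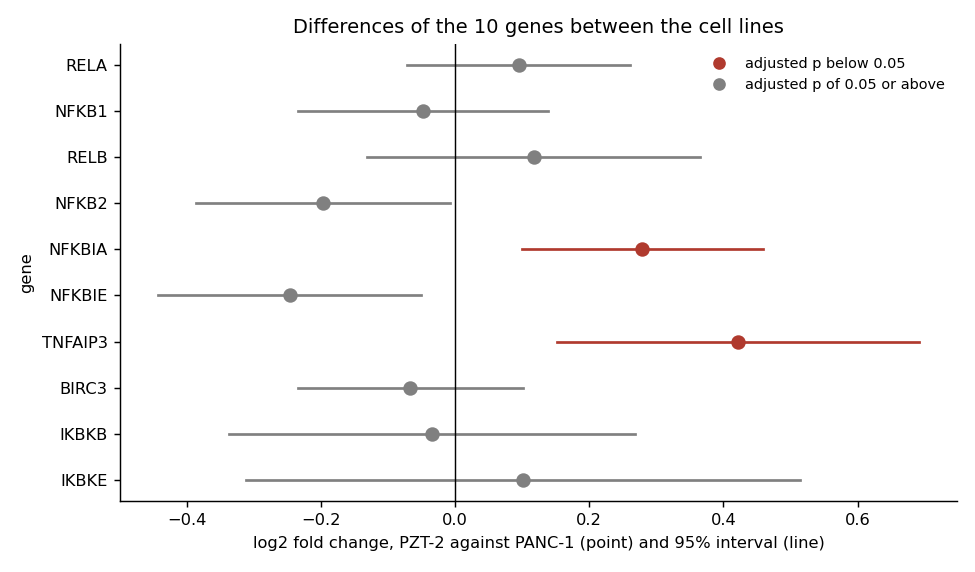
Log2 fold change of PZT-2 against PANC-1 (point) with its 95% interval (line) for the 10 genes. NFKBIA and TNFAIP3 (red, adjusted p below 0.05) lie to the right of 0 at 0.28 and 0.42, and NFKB2 and NFKBIE lie to the left at −0.20 and −0.25 without passing.

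Of 30 RefSeq transcripts listed for the 10 genes, 21 had counts and 19 could be tested. None passed in edgeR, where 0.148% of 30403 transcripts did, while 5 had an unadjusted p below 0.05. DESeq2 called 4 of them, beside 14.5% of all transcripts, and limma 0, beside 1.14%. Both the 5 and the 4 include NM_001145138 of RELA, which passed the filter only through PZT-2, so its test could point only upward. NFKBIA, NFKBIE and RELB had a single transcript listed, so their gene values do not depend on how reads were divided. BIRC3 also had counts on a single transcript, but its other listed transcript was absent from the counts. Whether reads were given to that transcript is not known here. For NFKB1, transcripts NM_001165412 and NM_003998 differ by 3 bases in length, 4090 against 4093. NM_001165412 took 52.0% and 35.7% of the counts in PANC-1 and 26.1% and 28.2% in PZT-2, with log2 fold changes of −0.76 for it and 0.33 for NM_003998 (adjusted p = 0.271 and 0.372, edgeR). The gene as a whole therefore had a smaller fitted difference than either transcript.

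Counts of NFKB2 were spread over 6 transcripts. NM_001322934 had normalized counts of 1016 and 858 in PANC-1 and 567 and 636 in PZT-2, and its log2 fold change was −0.64 ± 0.12 (adjusted p = 0.121 in edgeR and 0.000204 in DESeq2). NM_001077494 moved the other way, from 99.0 and 122 to 181 and 218 (adjusted p = 0.176 in edgeR and 0.029 in DESeq2). The most abundant others, NM_002502 and NM_001261403, overlapped between the lines, as did NM_001288724. The fitted difference of NFKB2 was thus made up of transcripts with differences of both signs.

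For RELA, nearly all counts fell on NM_021975. Its other transcript, NM_001145138, had 0 counts in both PANC-1 libraries and normalized counts of 106 and 64.1 in PZT-2, which is 4.0% and 2.33% of the gene. Against a floor of 3 counts per library, the PZT-2 mean of 85.3 is about 28-fold higher, a figure that covers counting error only. NM_001145138 passed the filter only through PZT-2, so its test could point only upward and is not given. These transcripts are 2586 and 2595 bases long, and the division between them rests on kallisto's estimate. TNFAIP3 was divided between NM_001270508, with 60.7 and 90.8 in PANC-1 and 144 and 114 in PZT-2, and NM_006290, with 135 and 90.8 in PANC-1 and 99.5 and 145 in PZT-2. The first did not overlap between the lines and the second did (adjusted p = 0.38 and 0.942, edgeR). For IKBKE, NM_014002 held 72.9% to 92.1% of the counts, and for IKBKB, NM_001556 held all counts in 3 libraries and 86.9% in PANC-1 replicate 2.

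**Figure D3:**
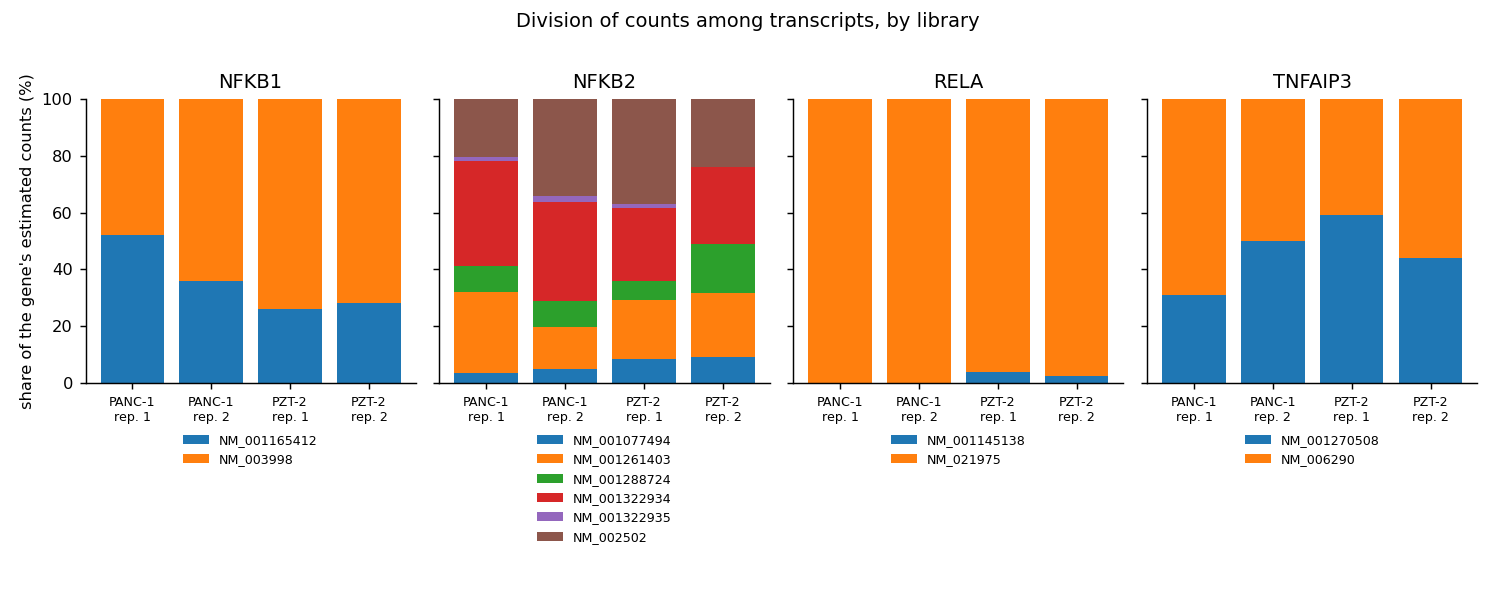
Share of each gene's estimated counts (%, linear axis) given to each of its transcripts, in each of the 4 libraries, for NFKB1, NFKB2, RELA and TNFAIP3. The share of NM_001165412 of NFKB1 is 52.0% and 35.7% in PANC-1 and 26.1% and 28.2% in PZT-2, and NM_001145138 of RELA appears only in the PZT-2 libraries.

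Around these genes, 67 of 76 other pathway genes were tested, and 14 were higher and 7 lower in PZT-2, with 46 not passing. Their share of calls, 31.3%, lay near the 28.4% of all genes, and their median log2 fold change was 0.08 beside 0.00 over all genes. Of the direct partners, IKBKG and MAP3K14 passed as lower in PZT-2 (adjusted p = 0.00287 and 0.00121, edgeR) and are described below. The partners listed next did not pass. REL, the remaining subunit, had a log2 fold change of −0.24, NFKBIB, the third classical IκB, −0.01, the kinase CHUK 0.01, BIRC2, the paralog of BIRC3, −0.10, and the deubiquitinase CYLD 0.12, with adjusted p-values from 0.446 to 0.961 in edgeR. For REL the PANC-1 libraries were 78.8 and 118 and those of PZT-2 90.6 and 78.1, so its interval reached from −0.79 to 0.32.

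Among the Rel and IκB proteins, 1 of 5 passed. NFKBIZ, a nuclear IκB protein that works as a coactivator on a subset of targets, had 127 and 147 in PANC-1 and 624 and 670 in PZT-2. That is 4.69-fold higher (log2 fold change 2.23 ± 0.11, adjusted p = 0.000163, edgeR), the largest rise among the called pathway genes, and its adjusted p stayed below 0.05 in each fit without 1 library, where the other line alone gives the spread. The median log2 fold change of chromosome 3, on which NFKBIZ lies, was 0.43, and that of its 20 nearest tested genes was 0.27. Its promoters also held the κB consensus, shown here because no called pathway gene rose more.
NFKBIZ, chr3:101827757-101827786, plus strand, 223 bases before the start: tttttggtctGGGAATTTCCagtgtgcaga
NFKBIZ from another start, chr3:101849265-101849294, plus strand, 239 bases before the start: gcgcgctgtcGGGGTTTCCCggtgaagggc
The first of these shares its 10 capital letters with the NFKB1 window, a gene that did not pass.

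Of the IκB kinase subunits and their adaptors, 3 of 11 were higher and 2 lower. MAP3K14, the kinase that starts the alternative pathway, fell from 2182 and 2278 to 1491 and 1402, a log2 fold change of −0.62 ± 0.06 (adjusted p = 0.00121, edgeR). IKBKG, the regulatory subunit of the IκB kinase complex, fell by 0.53 on the log2 scale (adjusted p = 0.00287). Its near-identical copy in the genome makes its counts uncertain, and it lies on chromosome X, whose tested genes had a median of −0.29. TBKBP1, an adaptor of the kinases TBK1 and IKBKE, rose from 128 and 121 to 339 and 331 (log2 fold change 1.43 ± 0.11, adjusted p = 0.000522). AZI2, another adaptor of these kinases, rose by 0.59 (adjusted p = 0.00829, 0.0607 without PZT-2 replicate 1 and 0.682 for its most abundant transcript alone), and its 20 nearest tested genes on chromosome 3 had a median of 0.71. TAB1, named after its values were seen, was the remaining rise.

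Of 10 TRAF and cIAP adaptors, 0 were higher and 2 lower in edgeR, with 3 above 0 and 7 below. TRAF6, the ubiquitin ligase of interleukin and Toll-like receptors, fell by 0.56 on the log2 scale (adjusted p = 0.0135), a call lost without PZT-2 replicate 1 or 2 (0.0642 and 0.0923), with DESeq2 (0.0569), on both TPM scales (0.0837 and 0.0933) and for its most abundant transcript alone (0.0559). XIAP fell by 0.55 (adjusted p = 0.00199, and 0.288 for its most abundant transcript alone) and lies on chromosome X. Of 10 receptor adaptors 1 was higher, IRAK2, and 3 were lower, IRAK1, MALT1 and CARD10, all but IRAK1 being named after their values were seen. IRAK1 is the kinase that carries interleukin and Toll-like receptor signals to TRAF6, and it had 17651 and 17163 in PANC-1 and 10786 and 11327 in PZT-2, a fold of 0.635 (log2 scale −0.65 ± 0.05, adjusted p = 0.00045, edgeR). Its 20 nearest tested genes on chromosome X had a median of −0.47.

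Of 11 receptors, 5 were higher and 0 lower, and their median log2 fold change was 0.42. IL1RAP, the shared chain of interleukin receptors, rose from 38.3 and 49.7 to 120 and 105 (log2 fold change 1.34 ± 0.21, adjusted p = 0.00503, edgeR), and its neighbours on chromosome 3 had a median of 0.50. The others, named after their values were seen, were TNFRSF1B, CD40, TNFRSF11A and TNFRSF12A, at log2 fold changes of 0.46, 0.42, 0.34 and 0.22. Ubiquitin editors and inhibitors were higher in 4 of 17 and lower in 0, and besides NKIRAS1 these were TNIP1, RNF11 and TAX1BP1, named after their values were seen. NKIRAS1, which slows the degradation of IκB proteins, rose from 97.9 and 97.6 to 165 and 211 (adjusted p = 0.00772, and 0.0568 without PZT-2 replicate 2), and its neighbours on chromosome 3 had a median of 0.50. Of the ligands, 0 of 3 tested passed in edgeR.

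Of 36 textbook NF-κB targets outside the 10 genes, 21 were higher and 1 lower, with a median log2 fold change of 0.67, beside 2221 and 2069 of 15102 over all genes. Of the secreted products, 14 of 16 were higher and 0 lower, with a median of 2.48, or 1.82 with CCL20, at 0 in both PANC-1 libraries, set to its bound. Of these, CCL20, LCN2, CXCL5 and CSF2 passed the filter only through PZT-2, so their test could point only upward. CSF2 and CXCL3 had mean normalized counts of 2.48 and 4.73 in PANC-1, against 20.5 and 49.9 in PZT-2. With at least 10 counts in all 4 libraries, 8 secreted products remained, and 8 were higher with a median of 1.25, while of all 27 targets that remained 15 were higher and 1 lower. CXCL1, a chemokine that draws neutrophils, rose from 123 and 130 to 1323 and 1404 (10.8-fold, adjusted p = 4.17e-05, edgeR). CXCL8 rose from 16.9 and 28.9 to 436 and 663, and CXCL2 from 12.4 and 8.13 to 149 and 144. LCN2, an iron-trapping lipocalin, had 1 count in each PANC-1 library and 208 and 238 in PZT-2, a ratio of 222 with a 95% counting interval of 61.1 to 1838. CXCL5 likewise had 1 count in each PANC-1 library and 88 and 128 in PZT-2, a ratio of 107 with an interval of 29.4 to 893. These intervals cover counting error only.

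Among intracellular targets 5 of 15 were higher and 1 lower, with a median of 0.02, beside 0.03 for the 10 genes. TNFAIP2 was the gene that fell, from 10283 and 9172 to 7735 and 7816 (log2 fold change −0.32 ± 0.06, adjusted p = 0.0122, edgeR), and the call was lost without PZT-2 replicate 1 or 2 (0.0798 and 0.0811). Of membrane targets 2 of 5 were higher, ICAM1 and SDC4, and 0 lower. These and the intracellular rises of SOD2, BCL2A1, IER3 and TNIP1, at log2 fold changes of 0.55 to 1.26, were named after their values were seen. NFKBIZ and TNIP1 stand in both lists, as do BCL3 and TRAF1, which did not pass. The promoters of CXCL1 and CXCL2 held the κB consensus at the same distance to within 1 base, printed for comparison with NFKBIA and TNFAIP3.
CXCL1, chr4:73869305-73869333, plus strand, 79 bases before the start: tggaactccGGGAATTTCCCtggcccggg
CXCL2, chr4:74099254-74099282, minus strand, 78 bases before the start: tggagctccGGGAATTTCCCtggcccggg
Promoters with a printed match thus belonged to genes with very unlike differences. CXCL2 was 14.4-fold, CXCL1 10.8-fold, NFKBIZ 4.69-fold, TNFAIP3 1.34-fold and NFKBIA 1.21-fold. NFKB1 stood at 0.968-fold, BIRC3 at 0.955-fold and NFKB2 at 0.872-fold. The CXCL8 promoter window held no match to the consensus searched, which does not show that it lacks an NF-κB binding site. Whether a difference between the 10 genes and the secreted targets exists beyond these counts was not tested, and the lists were chosen with earlier results of these libraries known.

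**Figure D4:**
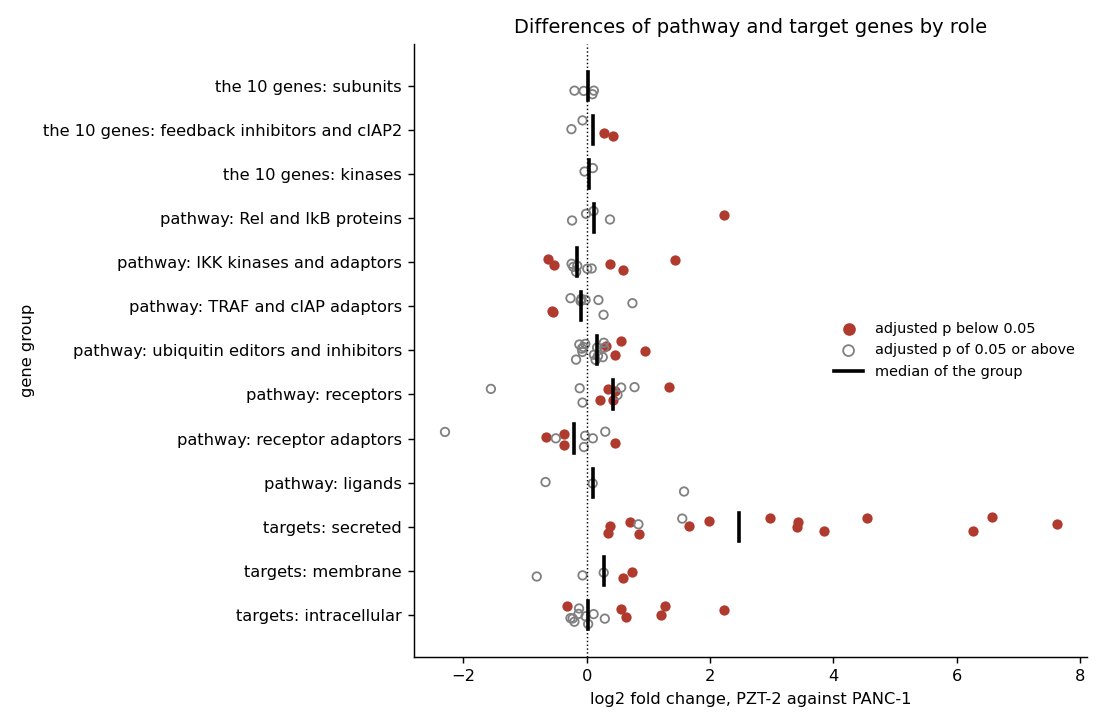
Log2 fold change of PZT-2 against PANC-1 for each gene tested, grouped by role: the 10 genes, other pathway genes and NF-κB targets. Filled points passed an adjusted p of 0.05, open points did not, and black bars are group medians. The 10 genes lie between −0.25 and 0.42, while secreted targets have a median of 2.48. Of these targets, CCL20, LCN2, CXCL5 and CSF2 passed the low-count filter only through PZT-2. The 8 secreted targets with at least 10 counts in all 4 libraries have a median of 1.25.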

How the data were processed

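RNA-seq values of 2 PANC-1 and 2 PZT-2 libraries were used. Per the labels and methods, the authors trimmed reads with Trim Galore 0.4.1, obtained estimated counts per RefSeq transcript with kallisto 0.43.0 and ran the Wald test of sleuth 0.29.0. The deposited table of that test holds p-values, q-values and effects, and natural log means from the authors. None of these values was used, but the table named 27049 transcripts, and 3925 more were named by accession in RefSeq of GRCh38.p14, which also gave chromosomes and neighbours. Deposited estimated counts carried 1 factor per library (0.935 to 1.16), which was undone, since 49.9% to 50.6% of low values were then whole within 0.01. Whether counting used strand is not given in the sources used here. Counts were rounded and summed per gene, and 103 unnamed transcripts (0.0466% of counts) stayed out.

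Genes with 5 counts in at least 2 libraries were tested with edgeR 4.0.16 (TMM, quasi-likelihood) in R 4.3.3, adjusted over all genes. TPM was recomputed from these counts and the deposited effective lengths. Normalized counts are scaled to the mean library. Intervals are 95%. Alternatives used DESeq2 1.42.0, limma 3.58.1 on log2(TPM + 1) and log2(TPM + 0.1), other filters and scalings, the most abundant transcript and each library left out. The fit was tested on simulated data. Members and lists were chosen with earlier results of these data known. Named were the 10 genes, their direct partners and, per list, the 5 largest called changes each way with a mean count of at least 50.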

Additional observations from a re-analysis of the deposited data

How the results depend on the processing

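Between 0 and 2 of the 10 genes passed when 1 library was left out, 0 under the replicate block, 1 (NFKBIA, higher) each with DESeq2, limma on log2(TPM + 1) and limma on log2(TPM + 0.1), and 1 (NFKB2, lower) with the most abundant transcript alone, which also called 12 other pathway genes in a fit chosen after seeing the data. DESeq2 called 3224 of all genes, limma 3816 and 3712, and the most abundant transcript alone 2122. Deviations of libraries with equal replicate numbers had a correlation of −0.0234 over genes, which does not settle whether the libraries were paired. The block left 3699 genes called. Leaving out 1 library gave 1866 to 4668 genes called, 10 to 28 other pathway genes and 16 to 26 targets, with the lowest counts of genes and pathway genes without PZT-2 replicate 2. With a library left out, 1 line has a single library and the other alone gives the spread. DESeq2 called 4 transcripts of the 10 genes (14.5% of all transcripts) and edgeR 0 (0.148%). The 4 include NM_001145138 of RELA, which passed the filter only through PZT-2.

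Changes of sign concerned genes that did not pass. The log2 fold change of NFKB1 became 0.00563 and 0.00579 on log2(TPM + 1) and log2(TPM + 0.1), 0.331 for its most abundant transcript, 0.00787 without PANC-1 replicate 1 and 0.00256 without PZT-2 replicate 2, with a range of −0.116 to 0.00787 over the libraries left out. That of IKBKB became 0.0216, 0.0244, 0.0492 and 0.0958 with the TPM scales, the most abundant transcript and without PANC-1 replicate 1 (range −0.175 to 0.0958). RELB gave −0.0198 without PANC-1 replicate 2 (range −0.0198 to 0.246) and IKBKE −0.0516 without PZT-2 replicate 1 (range −0.0516 to 0.24). The cause was not tested. The sign of the other 6 genes held under all alternatives run. With 2 libraries per line, outlying libraries could not be tested.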
